A study of Homo sapiens with 3 samples.

Results

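Metallothioneins are small cysteine-rich proteins that bind zinc, copper and cadmium, and this account concerns 8 genes of that family and of the zinc response in HEK293T cells. The members were MT2A, MT1X, MT1E, MT1F, MT1G and MT1M, which encode metallothioneins, MTF1, which encodes their zinc-sensing transcription factor, and SLC30A1, which encodes the zinc exporter ZnT1 of the plasma membrane. They were taken by gene name on the reference chromosomes, 8 of 67008 gene models in all. MT2A was chosen because it was higher than the control with both hairpins, so its difference from the control is given as a description, without a test.

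HEK293T is a fast-growing human cell line derived from embryonic kidney. All cells were infected with lentivirus in medium with 8 µg/mL polybrene, at a multiplicity of 5 particles, and sampled at 72 hours. The control library carried the vector name pLKO.1 and the genotype WT, and the other libraries carried the genotype DDX24 knockdown from a hairpin called shDDX24-1 or shDDX24-2, with 1 library each. DDX24 encodes an RNA helicase. Nothing in the labels says that the cultures were separate, so any p-value measures only the spread between these libraries.

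Zinc that enters a cell is buffered by metallothioneins, and free zinc binds MTF1. MTF1 then binds metal response elements upstream of the metallothionein genes and of SLC30A1, so that storage and export rise together when zinc rises. Metallothionein genes also answer to glucocorticoids and to other metals, and most human members lie side by side on chromosome 16.

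The upstream sequences are shown because the count of metal response elements differs between the members. They are the 250 bases before the annotated start, from RefSeq (GRCh38.p14), read 5′ to 3′ on the gene's strand, and the deposited gene models start at the same bases. Capitals mark each match to TGCACNC or TGCGCNC, the letters of the metal response element core, on either strand. No matches overlapped each other.
MT2A, chr16:56608334-56608583, plus strand: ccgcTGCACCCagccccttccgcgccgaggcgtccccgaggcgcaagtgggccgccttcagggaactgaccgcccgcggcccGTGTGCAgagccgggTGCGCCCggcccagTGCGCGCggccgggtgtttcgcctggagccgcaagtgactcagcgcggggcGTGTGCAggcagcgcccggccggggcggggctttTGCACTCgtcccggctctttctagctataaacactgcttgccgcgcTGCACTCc
MT1X, chr16:56682220-56682469, plus strand: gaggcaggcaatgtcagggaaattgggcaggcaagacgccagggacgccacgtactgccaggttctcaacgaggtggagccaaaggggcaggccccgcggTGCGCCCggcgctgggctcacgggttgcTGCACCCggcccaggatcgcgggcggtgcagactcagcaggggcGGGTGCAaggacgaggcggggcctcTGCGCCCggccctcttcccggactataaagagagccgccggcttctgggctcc
SLC30A1, chr1:211579162-211579411, minus strand: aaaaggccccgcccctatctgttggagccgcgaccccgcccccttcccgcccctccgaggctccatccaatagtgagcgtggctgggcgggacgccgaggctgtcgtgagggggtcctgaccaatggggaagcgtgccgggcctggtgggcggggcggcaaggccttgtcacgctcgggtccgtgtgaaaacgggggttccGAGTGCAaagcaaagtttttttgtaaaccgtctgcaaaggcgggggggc
The MT2A window held 7 matches, the MT1X window 4 and the SLC30A1 window 1, while the MTF1 window held 0. Of 35116 promoters of the same length, 24.8% held at least 1 match, 0.370% at least 4 and 0.0313% at least 7. The MT2A window also held 1 match to TGACTCA, the core of the AP-1 site, starting 104 bases before the start, and such a match on either strand was present in 4.20% of promoters. MT2A and MT1X each held TATAAA on the gene's strand, 29 and 30 bases before the start, as did 6.80% of promoters. A match is a description of the letters and not of binding. The table had no entry for MT1E, MT1F, MT1G and MT1M.

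**Figure D1:**
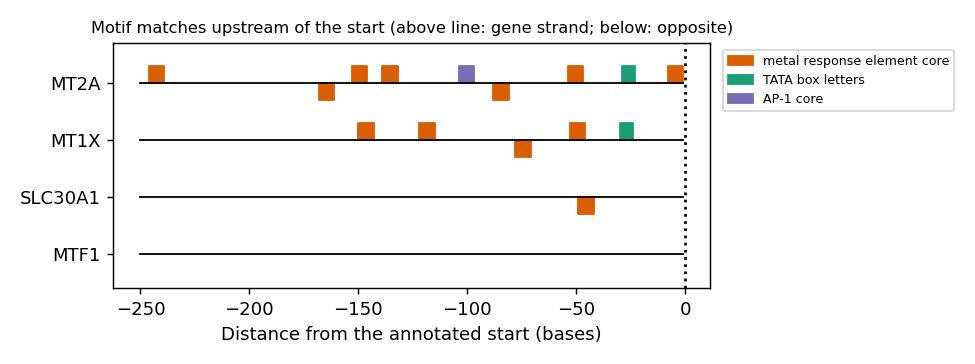
Matches in the 250 bases before the annotated start of 4 members, with distance from the start in bases on the x axis. Orange boxes are metal response element cores (7 for MT2A, 4 for MT1X, 1 for SLC30A1, 0 for MTF1), the purple box is TGACTCA and green boxes are TATAAA. Boxes above a line lie on the gene's strand and boxes below it on the opposite strand.

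The coding sequences of the 3 metallothionein genes with appreciable counts are shown because they are close copies of each other. They come from GENCODE release 29 (GRCh38), 5′ to 3′, joined over exons, with capitals at each base that differs from MT2A.
MT2A: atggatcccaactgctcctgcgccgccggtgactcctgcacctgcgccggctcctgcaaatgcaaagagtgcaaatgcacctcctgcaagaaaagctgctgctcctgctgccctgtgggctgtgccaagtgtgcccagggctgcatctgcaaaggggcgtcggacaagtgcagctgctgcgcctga
MT1X: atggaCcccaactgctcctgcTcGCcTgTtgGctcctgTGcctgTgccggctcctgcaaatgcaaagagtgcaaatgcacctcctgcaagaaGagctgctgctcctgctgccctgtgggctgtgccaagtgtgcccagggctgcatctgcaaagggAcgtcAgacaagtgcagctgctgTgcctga
MT1F: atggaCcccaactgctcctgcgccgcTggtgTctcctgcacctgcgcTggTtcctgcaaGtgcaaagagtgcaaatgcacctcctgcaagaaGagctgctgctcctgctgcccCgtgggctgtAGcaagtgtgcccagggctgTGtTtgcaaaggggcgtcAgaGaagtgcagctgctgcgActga
Each was 186 bases long and held 20 cysteine codons among 61. MT1X differed from MT2A at 14 positions (92.5% identity) and MT1F at 16 (91.4%). MT1X and MT1F were 88.7% identical to each other. The 5 metallothionein members other than MT2A ranged from 89.8% to 95.2% identity to MT2A. Of the 137 stretches of 50 coding bases in each gene, 26.3% of those in MT2A, 80.3% in MT1X and 16.8% in MT1F also occurred in a transcript of another gene. At 100 bases, the length of 1 read, 0 of 87 coding stretches did so in any of the 3. Over whole transcripts, 11.3% of the MT1X stretches of that length were shared with the overlapping lncRNA gene AC026461.1, and 0.0% of those of MT2A and MT1F were shared. Reads shorter than that after trimming, or read with mismatches, can still be divided among copies, so the metallothionein values carry that uncertainty. None of the 8 members had a second gene model on another scaffold.

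Library totals were 52198744 counts for pLKO.1, 36738685 for shDDX24-1 and 37828270 for shDDX24-2. DDX24 was listed at 0 counts on the reference chromosome in all 3 libraries, so neither the knockdown nor the labelling can be verified from that row. Counts of any DDX24 gene model on another scaffold are not given here. All 6 HEK293 markers (VIM, KRT8, KRT18, PAX2, NEFL and NEFM) were detected, with a summed level of 461 to 495 CPM (counts scaled to library size by TMM). The 9 markers of other cell types summed to 48.4 to 50.9 CPM, mostly from COL1A1 and LRP2, and CD3E was at 0.

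MT2A (ENSG00000125148.7, GRCh38 chromosome 16, 56608584 to 56609497, plus strand) was the metallothionein with the most counts in each library. It had 215 counts in the pLKO.1 library, 246 with shDDX24-1 and 257 with shDDX24-2, which is 4.07, 6.66 and 6.93 CPM. Both hairpin libraries were above the control, and they were close to each other, at a mean of 6.79 ± 0.19 CPM (SD, n = 2). The log2 ratio to pLKO.1 was 0.70 for shDDX24-1 (95% exact binomial interval, 0.44 to 0.98) and 0.76 for shDDX24-2 (0.50 to 1.03), or 1.63-fold and 1.69-fold. These intervals cover counting error only. In bulk RNA a higher level per cell and more expressing cells cannot be told apart. The raw counts are closer together than the CPM values, as the hairpin libraries held fewer counts in all.

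MT1X (ENSG00000187193.9, chromosome 16, 56682470 to 56684196, plus strand), another zinc-inducible metallothionein, had 42 counts in the pLKO.1 library, 43 with shDDX24-1 and 40 with shDDX24-2. In CPM this was 0.80, 1.16 and 1.08, with both hairpin libraries above the control. The log2 ratios were 0.52 (-0.10 to 1.20) and 0.42 (-0.22 to 1.10), and both intervals included 0. The fitted log2 fold change of both hairpins was 0.49 ± 0.34 (SE), and edgeR's quasi-likelihood test adjusted over all genes did not call it (adjusted p = 0.999). A lncRNA gene model, AC026461.1, overlaps MT1X on the same strand and was at 0 in every library. The pseudogene MT1XP1, which shares stretches of 50 bases with MT1X, had 13 counts in pLKO.1, 4 with shDDX24-1 and 3 with shDDX24-2. Had those reads come from MT1X, both of its ratios would be smaller.

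MT1F (ENSG00000198417.7, chromosome 16, 56657731 to 56660698, plus strand), a metallothionein of the same cluster, had 100 counts in the pLKO.1 library, 68 with shDDX24-1 and 48 with shDDX24-2. Its level was 1.89 CPM in pLKO.1 and 1.84 and 1.29 with the hairpins. The shDDX24-1 library lay next to the control, and the shDDX24-2 library was the lowest. The log2 ratios were -0.04 (-0.51 to 0.42) and -0.53 (-1.08 to -0.04). The log2 fold change over the group was -0.27 ± 0.33 (SE, edgeR adjusted p = 0.999). The log2 ratio of shDDX24-2 to shDDX24-1 was -0.49 (-1.07 to 0.05), so the hairpins were not separated beyond counting error.

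The remaining metallothionein members were at or near 0. MT1E had 1 count in the control and 0 with either hairpin, MT1G had 1 count with shDDX24-2 and 0 elsewhere, and MT1M had 0 throughout. Such an empty row allows at most 0.0568 CPM in pLKO.1, 0.0812 with shDDX24-1 and 0.0809 with shDDX24-2, taken as 3 counts per library and for counting error only. No fold change can be given for these 3 genes at this depth. A further 14 metallothionein gene symbols were in the table. They included MT1XP1, a processed pseudogene on chromosome 1, with 13, 4 and 3 counts, and MT1P1, with 1, 1 and 2. The others were at 0, among them MT3 and MT4, the metallothioneins best known from brain and squamous epithelium.

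**Figure D2:**
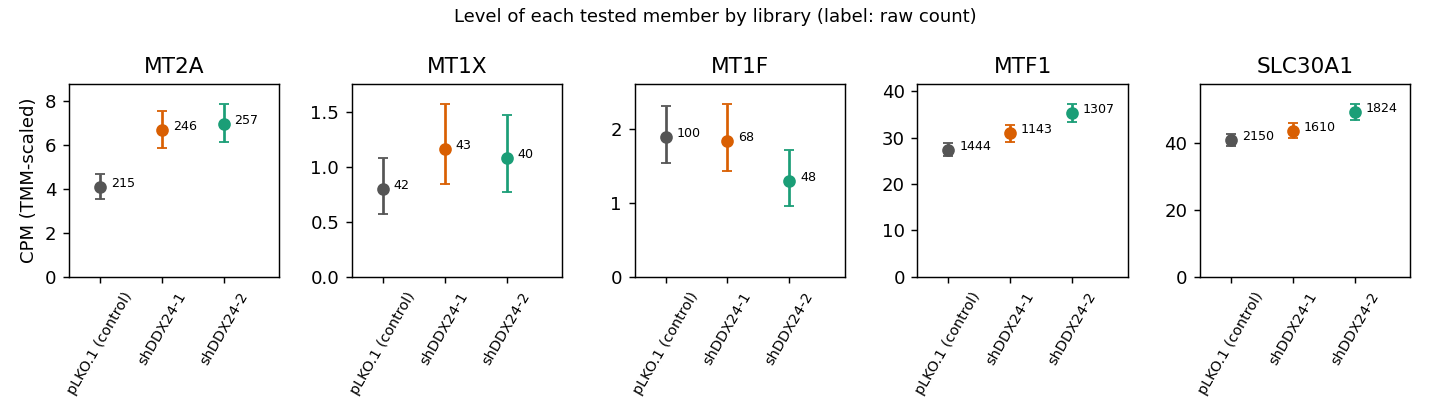
Level in CPM of the 5 members that passed the low-count filter, by library, with raw counts beside the points. Bars are 95% exact Poisson intervals of the counts. MT2A is at 4.07 CPM in pLKO.1 and at 6.66 and 6.93 with the hairpins, while MT1F is lowest with shDDX24-2 at 1.29 CPM.

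A sum over the family is less affected by how reads were divided among copies. All 21 metallothionein gene models together had 372 counts in the pLKO.1 library, 362 with shDDX24-1 and 351 with shDDX24-2, or 7.05, 9.79 and 9.46 CPM. The log2 ratios of this sum were 0.47 (0.26 to 0.69) and 0.42 (0.21 to 0.64). Both were above 0 beyond counting error, but the sum includes MT2A, which was chosen for its value. Without MT2A the remaining models had 157, 116 and 94 counts, with log2 ratios of 0.08 (-0.28 to 0.43) and -0.23 (-0.62 to 0.15). Those ratios had opposite signs, and both intervals included 0.

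The share of each gene within the family does not depend on library scaling. MT2A took 57.8% of all metallothionein counts in the control (95% Clopper-Pearson interval, 52.6% to 62.9%), 68.0% with shDDX24-1 (62.9% to 72.7%) and 73.2% with shDDX24-2 (68.3% to 77.8%). MT1F took 26.9% (22.4% to 31.7%), 18.8% (14.9% to 23.2%) and 13.7% (10.3% to 17.7%) in the same order. MT1X took 11.3%, 11.9% and 11.4%, which lay within each other's intervals. The shares sum to a whole, so a larger MT2A share lowers the sum of the other shares, but not necessarily each of them. The level of MT1F itself was 1.89 CPM in pLKO.1, 1.84 with shDDX24-1 and 1.29 with shDDX24-2. Its log2 ratio to pLKO.1 was -0.04 (-0.51 to 0.42) with shDDX24-1 and -0.53 (-1.08 to -0.04) with shDDX24-2. MT2A was chosen for its value. With 1 library per hairpin and 1 control, these shares were not tested between groups.

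**Figure D3:**
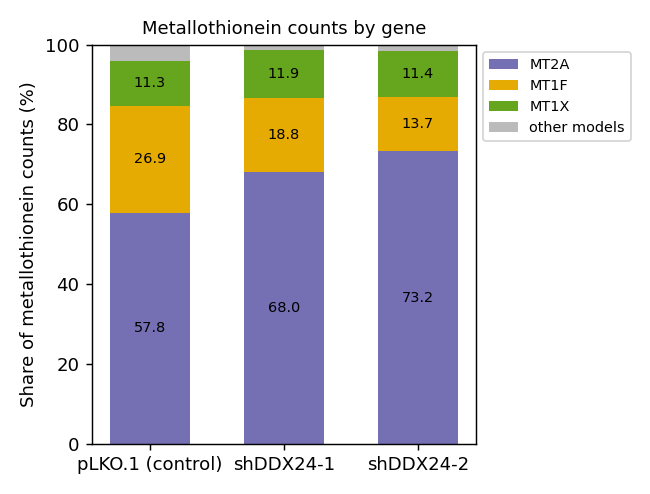
Share of all metallothionein counts (y axis, percent) taken by MT2A, MT1F, MT1X and all other models in each library. The MT2A share is 57.8% in pLKO.1 and 68.0% and 73.2% with the hairpins, while that of MT1X is 11.3%, 11.9% and 11.4%.

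MTF1 (ENSG00000188786.10, chromosome 1, 37809574 to 37859592, minus strand), the zinc-finger factor that binds metal response elements, had 1444 counts in the pLKO.1 library, 1143 with shDDX24-1 and 1307 with shDDX24-2. Its level was 27.3 CPM in the pLKO.1 library, 30.9 with shDDX24-1 and 35.2 with shDDX24-2. Both hairpin libraries were above the control, the shDDX24-2 library more so. The log2 ratios were 0.18 (0.06 to 0.29) and 0.36 (0.26 to 0.47), both above 0 beyond counting error. The log2 fold change over the group was 0.27 ± 0.16 (SE), short of the threshold (edgeR adjusted p = 0.999).

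SLC30A1 (ENSG00000170385.10, chromosome 1, 211571568 to 211579161, minus strand), the exporter that MTF1 induces when zinc rises, had 2150, 1610 and 1824 counts in the pLKO.1, shDDX24-1 and shDDX24-2 libraries. In CPM this was 40.7, 43.6 and 49.2, in the same order of libraries as for MTF1. The log2 ratios were 0.10 (0.003 to 0.19) and 0.27 (0.18 to 0.36). The interval with shDDX24-1 came close to 0, and intervals are given under TMM scaling only. With shDDX24-1 the MT2A ratio was 0.702 under TMM, 0.699 with DESeq2 size factors and 0.695 with library totals. Either shift would take the lower end of that SLC30A1 interval to 0 or below. With a trend in GC content and transcript length removed the SLC30A1 ratios were 0.17 and 0.36. The log2 fold change over the group was 0.19 ± 0.15 (SE, edgeR adjusted p = 0.999).

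MTF1 and SLC30A1 also differed between the hairpins beyond counting error. The log2 ratio of shDDX24-2 to shDDX24-1 was 0.19 (0.07 to 0.30) for MTF1 and 0.17 (0.08 to 0.27) for SLC30A1. Of all genes tested, 22.5% were higher with shDDX24-2 in that sense and 20.1% lower, so such a difference was common between these libraries. For MT2A the same ratio was 0.06 (-0.20 to 0.32) and for MT1X -0.11 (-0.77 to 0.55). These differences have no replicate check.

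Of the 8 members, 5 passed the low-count filter. With both hairpins, 4 of those were higher than the control (MT2A, MT1X, MTF1 and SLC30A1) and 1 was lower (MT1F), where 31.9% of 17713 genes tested were higher with both and 32.0% lower with both. The median log2 ratios of the 5 were 0.18 with shDDX24-1 and 0.36 with shDDX24-2, against 0.003 and -0.004 over all genes tested. MT2A was chosen on this contrast, so neither these medians nor any count here that includes it supports anything by itself. Under TMM scaling, the counting intervals of both ratios lay above 0 for 3 members (MT2A, MTF1 and SLC30A1), as they did for 10.2% of genes tested. Such intervals narrow as counts rise, and that of SLC30A1 with shDDX24-1 only just cleared 0. Both intervals lay below 0 for 0 members and for 9.13% of genes tested. By edgeR 0 of the 4 tested members other than MT2A passed at an adjusted p of 0.05. Without adjustment 0 of them were under 0.05, as 3.88% of genes tested were, and neither DESeq2 nor limma-voom called any (0 of 4). Over all genes 0.0% were called higher and 0.0113% lower (2 genes). The residual spread rests on 1 degree of freedom, from the difference between the hairpins. In simulated data of this design the test called few changes of 2-fold, a size above that of these 4 members, so a p short of the threshold does not show that a gene was unchanged. Both ratios share the control library, so their like signs are not independent of each other.

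**Figure D4:**
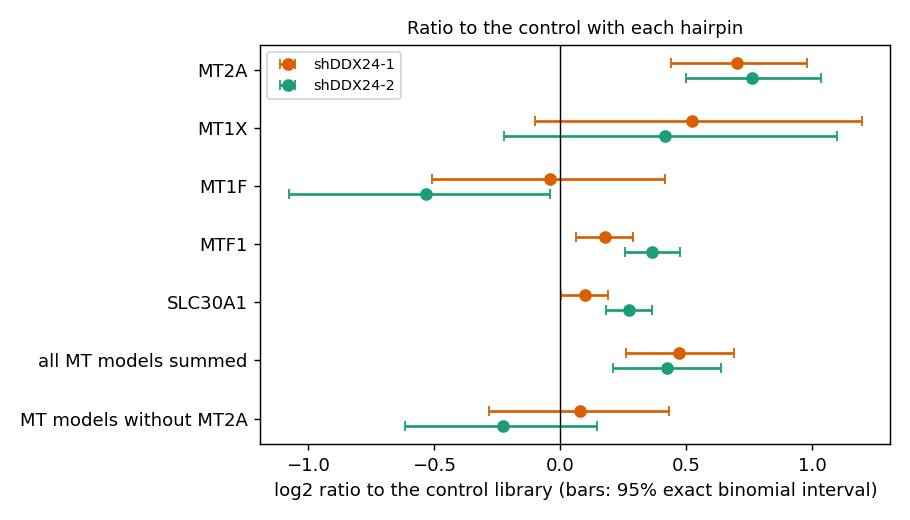
Log2 ratio to the control (x axis) with shDDX24-1 and shDDX24-2 for the 5 tested members and for sums over the metallothionein models, with 95% exact binomial intervals of the counts. MT2A lies at 0.70 and 0.76, MT1F at -0.04 and -0.53, and the family without MT2A at 0.08 and -0.23.

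Zinc transporters other than SLC30A1 had no common direction. Most ZnT proteins, encoded by SLC30A genes, move zinc out of the cytosol, and ZIP proteins, encoded by SLC39A genes, move it in. The names exporter and importer are used here for these gene families as a whole. Of 9 further exporter genes 7 were tested, with 1 higher than the control with both hairpins, 2 lower and 4 of mixed sign. Their median log2 ratios were -0.03 and -0.04. Of 14 importer genes 9 were tested, with 2 higher, 2 lower and 5 mixed, and medians of -0.02 and 0.05. Over all genes tested, 31.9% were higher with both hairpins and 32.0% lower with both. By edgeR 0 of these 16 transporter genes passed over all genes. Before adjustment 0 exporters and 1 importer (SLC39A13) were under 0.05, against 3.88% of genes tested. Neither DESeq2 nor limma-voom called any of the 6 named here (0 of 6).

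SLC39A13, a ZIP protein of intracellular vesicles, was the transporter furthest above the control with both hairpins. It had 704 counts in the pLKO.1 library, 756 with shDDX24-1 and 665 with shDDX24-2, or 13.3, 20.5 and 17.9 CPM. Both hairpin libraries were above the control, with log2 ratios of 0.62 (0.47 to 0.77) and 0.43 (0.27 to 0.58). Its fitted log2 change was 0.53 ± 0.18 (SE) at an edgeR adjusted p of 0.999. SLC39A3, a ZIP importer of the plasma membrane, was at 25.5 CPM in pLKO.1 and 30.3 and 29.3 with the hairpins. SLC30A7, which loads zinc into the Golgi, had log2 ratios of 0.04 (-0.03 to 0.11) and 0.17 (0.10 to 0.24), the first within counting error. Lower with both were SLC30A9, a mitochondrial zinc transporter, at 147 against 132 and 112 CPM, and SLC39A9 at 113 against 104 and 106 CPM. SLC30A5, of the secretory pathway, was also lower with both, at 117 against 101 and 114 CPM. Its log2 ratio with shDDX24-2 was -0.04 (-0.09 to 0.02), within counting error. SLC39A7 was at 0 throughout and has 5 further gene models on other scaffolds, also at 0, so its level could not be read.

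**Figure D5:**
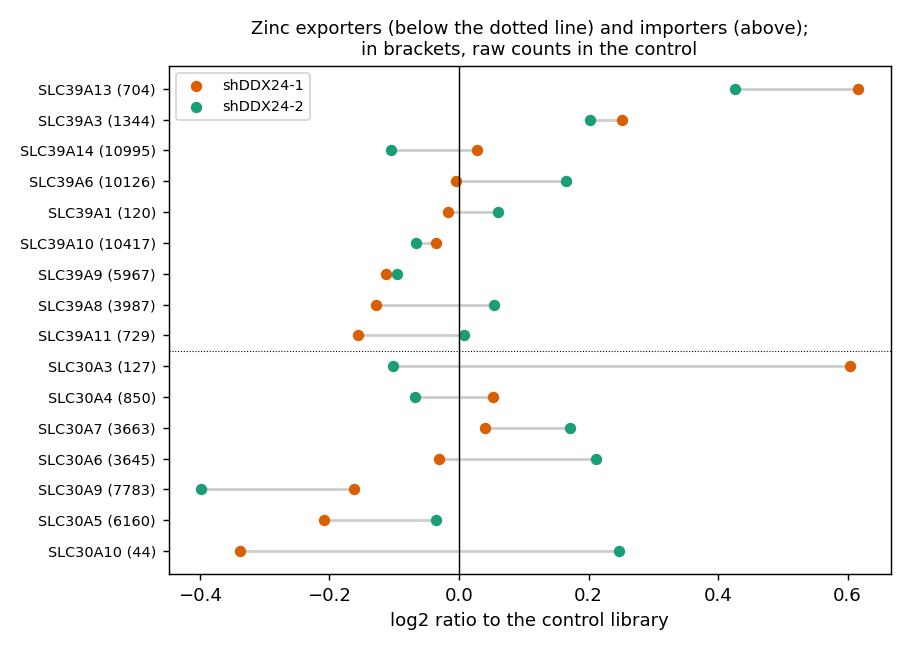
Log2 ratio to the control (x axis) with each hairpin for the 7 exporter and 9 importer genes tested, with raw counts in the control in brackets and a grey line joining the hairpins. SLC39A13 is at 0.62 and 0.43 and SLC30A9 at -0.16 and -0.40; 9 of the 16 genes have ratios of opposite sign.

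Other genes tied to metallothioneins were read in the same way. Over all genes tested, 31.9% were higher with both hairpins and 32.0% lower with both, which is the background for each list. Copper handling genes had 3 of 10 higher and 4 lower with both hairpins. The copper chaperone ATOX1 had log2 ratios of 0.19 and 0.21, the scaffold protein COMMD1 -0.29 and -0.30, and the copper pump ATP7A -0.31 and -0.15. Heat shock and metal stress genes had 4 of 6 tested higher and 1 lower, led by HSPB1, a small heat shock protein, at 65.4 CPM in pLKO.1 against 93.8 and 79.8 with the hairpins (edgeR adjusted p = 0.999). BAG3, a cochaperone, had log2 ratios of 0.12 (0.02 to 0.22) and 0.07 (-0.03 to 0.17), the latter within counting error. HSPA8, the constitutive HSC70, had -0.11 and -0.13. HSPA1A and HSPA1B, the inducible HSP70 genes, were listed at 0 on the reference chromosome, and each has 4 further gene models on other scaffolds. The 4 scaffold models of HSPA1B held 2383 counts over the 3 libraries, and those of HSPA1A held 6. HSF1, the heat shock factor, had 1 count in all, and its 1 further gene model on another scaffold was at 0, so its level could not be read.

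Antioxidant genes that answer to cadmium as metallothioneins do had 1 of 6 higher and 3 lower with both hairpins. The shares over all genes tested were 31.9% higher and 32.0% lower. HMOX1, heme oxygenase 1, was at 91.3 CPM in pLKO.1 against 49.2 and 50.03 with the hairpins, opposite in sign to MT2A. Its fitted log2 change was -0.88 ± 0.13 (SE) at an edgeR adjusted p of 0.873. DESeq2 called it (adjusted p = 0.0128), as did edgeR under library totals (adjusted p = 0.0178). It was not called by limma-voom (adjusted p = 0.997), nor by edgeR with DESeq2 size factors (0.968) or without the low-count filter (0.489). SLC7A11, the cystine transporter, was at 80.5 against 60.6 and 48.4 CPM, and SELENOH, a nuclear selenoprotein, at 24.7 against 28.8 and 29.7 CPM. In this list 2 genes, HMOX1 and SLC7A11, were at an unadjusted edgeR p under 0.05, against 3.88% of genes tested, and 0 passed.

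Glucocorticoid receptor targets, a group to which MT2A also belongs, were listed together with the receptor gene NR3C1. Of these 8 genes, 3 were higher with both hairpins, 1 lower (NR3C1) and 4 mixed. The shares over all genes tested were 31.9% higher and 32.0% lower. KLF9, a transcription factor, had log2 ratios of 0.16 and 0.14, and FKBP5, a cochaperone of the receptor, 0.12 and 0.06. NR3C1, the receptor itself, had -0.07 (-0.16 to 0.03) and -0.06 (-0.15 to 0.04), and both intervals included 0. TSC22D3, a strongly induced target, was at 283 CPM in the pLKO.1 library, 223 with shDDX24-1 and 361 with shDDX24-2, on opposite sides of the control. It was named after its values were seen. In this list 0 genes passed edgeR and 0 had an unadjusted p under 0.05. Neither DESeq2 nor limma-voom called any of the 3 named by rule (0 of 3).

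The genes nearest to MT2A in pattern were found among 10994 others that reached 5 CPM in any library, by the Euclidean distance between their pairs of log2 ratios over the 2 hairpins. They were LINC00641 (distance 0.071), HIC1 (0.082), SBK1 (0.089), RPL22 (0.091) and CKMT1B (0.131). RPL22, a ribosomal protein gene, was at 78.0 CPM in pLKO.1, 119.7 in shDDX24-1 and 128.8 in shDDX24-2. MT2A, HIC1 and SBK1 reached 5 CPM only with a hairpin, since their levels in the pLKO.1 library were 4.07, 2.82 and 4.34 CPM, so the filter admitted them through the libraries in which they were high. With 3 libraries this likeness rests on 2 ratios that share the control and that chose MT2A.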

How the data were processed

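Poly(A)-selected RNA was sequenced as 100 bp paired-end reads, per the labels' protocols. The authors deposited raw read counts per gene model for 3 libraries (1 control, 2 knockdown). The submitters' processing notes name STAR 2.7.3a, DESeq2 1.26 and GRCh38 (hg38). Of the read counter, the strand setting, multiply mapped reads and the annotation release, each is not given in the sources used here. Levels are compared only within a gene, since exon lengths of the deposited models were not used.

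From the counts, filterByExpr (minimum count 10) kept 17713 of 67008 models, and TMM gave CPM. Testing used the quasi-likelihood method of edgeR 4.0.16 with Benjamini-Hochberg adjustment over all genes at 0.05, in R 4.3.3. Standard errors are the fold change (log2) over the root of F. A prior count of 2 entered the per-library ratios, and intervals (exact, 95%) carry none. Reads are not independent molecules, so intervals and floors (3 counts) cover counting error only. The fit was tested on simulated data. Alternatives were DESeq2 size factors, library totals, no filter, DESeq2 1.42.0, limma-voom 3.58.1, a prior count of 0.5 and leaving out each hairpin; taking out a loess trend with GC and transcript length was added after the data were seen. The members and lists were chosen with earlier results of these data known. Genes named were the members, metallothionein models with at least 10 counts, up to 3 genes per list and direction by the smaller absolute log2 ratio among those of like sign (3 in either direction for lists other than transporters), and the 5 genes nearest to MT2A; others are said to be chosen after their values were seen. Upstream sequences are RefSeq's (GRCh38.p14) and coding sequences GENCODE release 29's. Only 1 of the 8 members had the same versioned identifier in GENCODE release 29, so its transcripts can differ from those counted. Protein sequences were not used here.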

Additional observations from a re-analysis of the deposited data

How the results depend on the processing

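MT2A, MT1F, MTF1 and SLC30A1 kept their sign under every alternative run, and so did MT1X. For the 4 tested members the adjusted p was 0.625 or higher in each fit, so 0 passed. The log2 fold change ranged from -0.53 to -0.04 for MT1F, from 0.42 to 0.52 for MT1X, from 0.18 to 0.36 for MTF1 and from 0.10 to 0.27 for SLC30A1, over the fits other than that removing the GC and length trend, each at its extremes with 1 hairpin left out, where no test is possible. The number of genes called lower was 2 in the main fit. It was 0 with DESeq2 size factors or without the low-count filter, 7 with library totals, 3 with DESeq2 and 1 with limma-voom. With 1 hairpin left out, 6 to 9 zinc transporter genes were above the control and 7 to 10 below it, against 3 and 4 with both. HMOX1 was called lower by DESeq2, at an adjusted p of 0.0128, and by edgeR under library totals, at 0.0178. The main edgeR fit did not call it, and neither did limma-voom (adjusted p = 0.997). Nor did edgeR with DESeq2 size factors (adjusted p = 0.968) or without the low-count filter (0.489). With the GC and length trend removed, the log2 ratios with shDDX24-1 and shDDX24-2 were 0.68 and 0.74 for MT2A, 0.51 and 0.42 for MT1X, -0.07 and -0.54 for MT1F, 0.21 and 0.46 for MTF1, and 0.17 and 0.36 for SLC30A1. No paired analysis was possible because the control group is 1 library. Depth limits MT1X, MT1E, MT1G and MT1M.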

Other observations

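Within 500 kb of MT2A on chromosome 16, 13 genes were tested, counting MT2A, MT1F and MT1X. Of these 5 were higher than the control with both hairpins, 6 lower and 2 of mixed sign, with median log2 ratios of -0.02 and -0.02. Over all genes tested, 31.9% were higher with both and 32.0% lower with both. GNAO1, a G protein subunit that starts 417 kb before MT2A, had 170 counts in the pLKO.1 library, 188 with shDDX24-1 and 260 with shDDX24-2, or 3.22, 5.09 and 7.01 CPM. On one side of the cluster the nearest tested gene was BBS2, a ciliary protein gene, at 44.6 CPM in pLKO.1 and 41.9 and 40.9 with the hairpins. On the other it was the lncRNA gene AC106779.1, with 19, 13 and 6 counts and log2 ratios of -0.03 (-1.17 to 1.06) and -0.96 (-2.77 to 0.23), both with intervals that included 0. Next to it NUP93, a nuclear pore protein gene, was at 154 against 162 and 160 CPM. NLRC5, a regulator of MHC class I genes, was at 1.89 CPM in the pLKO.1 library, 3.14 with shDDX24-1 and 1.32 with shDDX24-2. These genes were named after their values were seen.

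HBB, a globin gene that served as a marker of red cells, had 75 counts in the pLKO.1 library, 8 with shDDX24-1 and 4 with shDDX24-2. Its part in any result was not tested.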
